A study of Drosophila melanogaster with 4 samples.

Results

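The euchromatic HP1a clusters of the Drosophila X chromosome are regions of the X sequence in which an HP1a ChIP library was enriched over its input, away from both ends of the chromosome. They were chosen by position alone. A cluster of the series list belonged if it lay wholly between X:200001 and X:20422827, which leaves out the distal 200 kb and the proximal 2 Mb nearest the centromere. Of the 3891 clusters of that list, 708 met the rule. The same window held 356 of the 3110 clusters of ChIP replicate 1 and 374 of the 3052 clusters of ChIP replicate 2. Coordinates are those of FlyBase release 5, counted from 1.

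The material was whole third-instar larvae of the wild-type strain Oregon-R, and the sample titles name nuclei as the preparation. The antibody wa191, raised against HP1a, was used in 2 ChIP libraries, and 2 input libraries served as their backgrounds. The inputs entered only through the lists of enriched clusters. Whole larvae mix many cell types, so fewer cells with HP1a at a site and less HP1a per cell cannot be told apart. The labels do not give the sex of the larvae, and nothing in them says that the replicates came from separate collections, so their spread may be technical.

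HP1a binds histone H3 methylated at lysine 9 through its chromodomain and pairs with itself through its chromoshadow domain, which lets it bridge nucleosomes. It is best known for packing the heterochromatin around centromeres, but it also sits at telomeres and at scattered sites along the euchromatic arms, where it is found at both silent repeats and transcribed genes. The X differs from the other arms in dose, since males carry a single X whose transcription is raised by the MSL complex, and loss of HP1a is known to alter the structure of the male X in polytene chromosomes.

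HP1a on the euchromatic X took the form of many short and weak clusters. Each cluster carries 1 value, the authors' own, read here as the log2 of ChIP over input. The 708 clusters covered 8.61% of the 20.2 Mb window, and the median cluster was 1973 bp wide with a value of 0.54, or 1.46-fold. The quartiles of the values were 0.44 and 0.70. Only 70 of the 708 clusters reached a value of 1, a doubling over input, and 30 reached 1.5. The quartiles of width were 1451 bp and 2571.5 bp, and 52 clusters were at least 5 kb wide. Those 52 had a median value of 0.93, against 0.54 for all 708, and 19 of them reached a value of 1.

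The replicate lists were shorter and their clusters had higher values. The lists also differ in value at the same sites. Over the 259 X clusters that overlapped both replicates, series value minus replicate value had a median of -0.11 for replicate 1 and -0.05 for replicate 2. In replicate 1 the 356 clusters covered 4.62% of the window, with medians of 0.80 for value and 2041 bp for width. In replicate 2 the 374 clusters covered 4.72%, and the medians were 0.76 and 2052 bp. The mean cover was 4.67% ± 0.07 and the mean density 18.0 ± 0.6 clusters per Mb (SD, n = 2). The replicates therefore differed little in how much of the X they called, while the series list held nearly all of their clusters and others besides. Of the replicate clusters, 353 of 356 and 373 of 374 overlapped a cluster of the series list by at least 1 bp. Read numbers per library and per cluster are unknown, so no counting interval can be given.

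Support from the replicates split the 708 clusters into unlike groups. There were 259 that overlapped a cluster in both replicates, or 36.6%, against 52.1% of all series clusters and 45.2% of those in the same windows of 2L, 2R, 3L and 3R. Another 79 overlapped replicate 1 alone and 87 replicate 2 alone. The remaining 283, or 40.0%, overlapped neither, against 28.2% of all series clusters and 32.0% in the windows of the other 4 arms. By arm, the share in both was 47.3% on 2L, 50.2% on 2R, 42.1% on 3L and 41.6% on 3R, so X was the lowest of the 5 arms. The order was not the same in every class. Among clusters with values from 0.5 to 1, 162 of 367 on X (44.1%) overlapped both replicates, against 239 of 325 (73.5%) on the other 4 arms. Among clusters at least 2000 bp wide these shares were 70.3% on X and 85.9% on the other 4 arms. Among clusters with a value of at least 1 X was higher, with 55 of 70 (78.6%), against 107 of 155 (69.0%). The series list has no replicate of its own, so these differences were not tested.

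The clusters in both replicates were the wider and stronger ones. Their median width was 2653 bp and their median value 0.75, against 1363 bp and 0.50 for the clusters in neither. Clusters in replicate 1 alone had medians of 1925 bp and 0.49, and those in replicate 2 alone 1961 bp and 0.50. The overlap rose steeply with width. None of the 134 clusters narrower than 1301 bp was in both, where 1301 bp is the narrowest cluster of either replicate list. Of the 241 from 1301 bp to under 2000 bp, 25 were in both, or 10.4%. From 2000 bp to under 3000 bp it was 136 of 214, or 63.6%, and all 52 clusters of at least 5 kb were in both. The other arms were not split into these classes, so whether the trend is particular to X was not tested. A wider cluster reaches an overlap of 1 bp more easily, and the series list admits narrower clusters, down to 1001 bp, so the part of these limits in the trend was not tested.

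**Figure D1:**
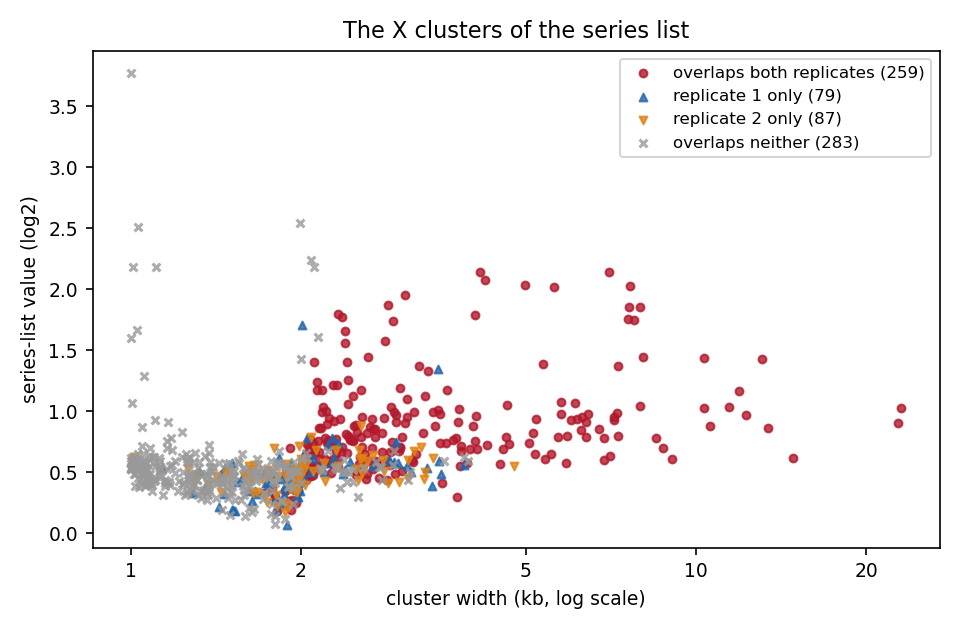
Each point is 1 of the 708 X clusters of the series list, with its width on a log axis in kb and its value on the log2 scale, marked by the replicates it overlaps. The 259 clusters in both replicates start near 2 kb and hold all widths of 5 kb or more, and the 283 in neither crowd at narrow widths with values near 0.5, with a few narrow ones far above.

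Value did not order the support in the same even way. The share in both was 15.5% of 271 clusters with values under 0.5, 31.3% of 284 from 0.5 to under 0.75, 88.0% of 83 from 0.75 to under 1 and 90.0% of 40 from 1 to under 1.5. It was then 63.3% of 30 clusters at 1.5 or more, and 10 of these 30 overlapped neither replicate. The other arms were not split this finely, so whether the pattern is particular to X was not tested. Altogether 13 clusters in neither had a value of at least 1, with a median width of 1053 bp, and 10 of these 13 held a value that some other cluster of the list repeats exactly. Over all 708 clusters, 101 had a repeated value, or 14.3%, against 22.6% of all series clusters and 11.9% of those on the other 4 arms. The share of repeated values was 5.79% among the X clusters in both replicates. Among those in neither it was 22.6%, level with the whole series list but above the 11.9% on the other 4 arms. The share among clusters in neither was not taken off the X.

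The highest values on the X were of this kind. The cluster at X:10990510-10991510, 1001 bp wide, had a value of 3.77, the highest of all 708, and overlapped no cluster of either replicate. It lay 273 bp from a cluster in both replicates, X:10991784-10996008, with a series value of 2.08. The second highest unshared value, 2.55, belonged to X:326616-328604, 831 bp from the shared cluster X:322552-325784, which had 1.37. The third, 2.51 at X:14180874-14181902, stood alone, with its nearest neighbour 38245 bp away. All 3 of these values were repeated in the list. The widest clusters without replicate support were much weaker, with 0.59 at X:4244330-4248282 (3953 bp), 0.62 at X:1853058-1856950 (3893 bp) and 0.59 at X:11269428-11273004 (3577 bp).

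Among the 259 clusters in both replicates, value tended to be higher in wider clusters (Spearman correlation 0.549, a description across clusters), but the strongest were not the widest. The highest series value was 2.14 at X:12825882-12830032, a cluster of 4151 bp with a value of 1.94 in replicate 1 and 2.29 in replicate 2. X:4824262-4831274 followed with 2.07 and 2.23 in replicates 1 and 2, and X:10991784-10996008 had 2.26 and 1.92. The series values of these 3 correspond to 4.23-fold to 4.42-fold enrichment, and the replicates differed by 0.16 to 0.35 at each. The next was X:14929144-14934124, with 1.93 in replicate 1 and 1.99 in replicate 2, whose clusters covered only 43.9% and 69.8% of it. X:1521816-1529452 had 2.06 and 2.15, and X:2505622-2511220 had 1.87 and 2.07. X:11451868-11454924 had 1.91 and 2.00, and X:15826758-15829604 had 1.85 and 1.93. These 8 clusters were 2847 bp to 7637 bp wide, and each matched a single cluster in each replicate.

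The widest clusters had lower values than these 8 and were often broken in the replicates. The widest of all, X:17829532-17852618, spanned 23.1 kb with a series value of 1.03. It held 3 clusters of replicate 1, with a mean value of 1.17 weighted by overlap, and 2 of replicate 2, with 1.07. X:16364624-16387382 spanned 22.8 kb and held 3 clusters of replicate 1 (1.00) and 4 of replicate 2 (0.94). Neighbouring clusters at X:15851606-15866462 (14.9 kb) and X:15866528-15878776 (12.2 kb) each held 2 clusters of replicate 1 and 4 of replicate 2. The first had values of 0.79 and 0.73 in replicates 1 and 2, the second 1.09 and 0.93. X:19611952-19625340 (13.4 kb) had 1.09 in replicate 1 over 1 cluster and 0.91 in replicate 2 over 3. X:16391430-16402860 (11.4 kb) had 1.11 and 1.06, over 2 clusters in each. The exceptions in this group were X:6444720-6457806 (13.1 kb), with 1.65 and 1.44, and X:17997512-18009420 (11.9 kb), with 1.41 and 1.19, both unbroken in each replicate. Over the whole X, 13 clusters of the series list held 2 or more clusters of replicate 1, and 18 did so for replicate 2.

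The replicates ranked the shared clusters alike. Over the 259 clusters in both, the Spearman correlation between the replicate values was 0.873 and Pearson's r 0.923. Over all series clusters in both replicates these were 0.937 and 0.928, and on the other 4 arms 0.880 and 0.940. These are descriptions across clusters, which share libraries and are not independent replicates. The median absolute difference on X was 0.10 on the log2 scale, against 0.12 over all series clusters and 0.11 on the other 4 arms. On X, 202 of the 259 lay within 0.2 of each other. Replicate 1 was higher in 167 of the 259, or 64.5%, against 54.3% of all series clusters in both replicates and 67.7% of those on the other 4 arms. The lead of replicate 1 did not extend to the strongest sites. It was higher in 136 of 204 clusters with a series value under 1 and in 26 of 36 from 1 to under 1.5, but in 5 of 19 at 1.5 or more. The median difference, replicate 1 minus replicate 2, was 0.05, 0.07 and -0.07 in these classes. Clusters off the X were not split by value in this way, so whether the turn at high values is particular to X was not tested. The largest difference was at X:11088374-11096136, with 1.51 in replicate 1 and 2.00 in replicate 2. The next 3 went the other way, with 1.11 and 0.68 at X:9895546-9899262, 0.69 and 0.31 at X:19576106-19578110, and 0.77 and 0.42 at X:17400302-17402440.

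**Figure D2:**
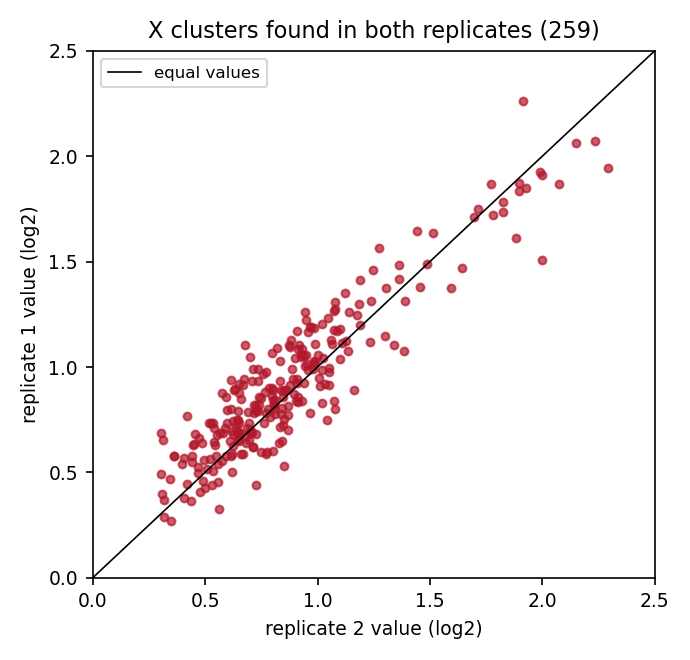
Each point is 1 of the 259 X clusters found in both replicates, with its value in replicate 2 on the horizontal axis and in replicate 1 on the vertical axis, both log2. Points lie close to the line of equal values, mostly above it at low values, while 14 of the 19 clusters with a series value of 1.5 or more lie below it.

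Edges mostly agreed to within a small part of a cluster. For the 238 clusters with 1 cluster in each replicate, the starts differed by a median of 92 bp and the ends by 111 bp. Both edges lay within 500 bp of each other in 186 of the 238, and the replicate clusters shared bases in 236. The median widths were 2151.5 bp in replicate 1, 2189.5 bp in replicate 2 and 2562 bp in the series list. Replicate clusters on X that the other replicate missed were narrower and a little weaker. In replicate 1, 86 clusters were missed by replicate 2, and their medians were 0.72 and 1596 bp, where the 270 shared clusters had 0.86 and 2193 bp. In replicate 2, 97 were missed by replicate 1, with medians of 0.67 and 1624 bp, where the 277 shared clusters had 0.81 and 2219 bp. The same counts were not made off the X, so whether these shares are particular to X was not tested. Of the 283 series clusters that overlapped neither replicate, 33 lay within 1 kb of a replicate cluster and the median distance was 9.14 kb.

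Set beside 2L, 2R, 3L and 3R with the same ends left out, the X held 2.26 ± 0.18 times as many clusters per Mb and 2.43 ± 0.12 times the cover (SD, n = 2). The ratios for density were 2.14 in replicate 1 and 2.39 in replicate 2, and those for cover 2.35 and 2.52. Median width was 2046.5 bp ± 7.8 on X and 1996 bp ± 2.8 on the other 4 arms, a small difference of 50.5 bp. Single arms did not all lie below X, since 2L had 2053.75 bp ± 46.3. No test was made, because the smallest p that exact permutation of 2 pairs allows is 0.5. The differences in density and cover were larger than the spread between the replicates. The ratio of cover depends on the window, and with only the proximal 1 Mb left out of each arm it was 1.54.

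The excess on X was largest for clusters of middle value. Under 0.5, X had 1.38 and 2.27 clusters per Mb in replicates 1 and 2, against 2.07 and 2.78 on the other 4 arms, so it was lower within each replicate while the ranges overlapped. From 0.5 to under 1 it had 11.5 and 12.4, against 4.48 and 3.42, a ratio of 3.09 ± 0.75 (SD, n = 2). From 1 to under 1.5 it had 3.61 and 2.82, against 1.08 and 0.93, a ratio of 3.18 ± 0.23. At 1.5 or more it had 1.14 and 1.04, against 0.60 in both replicates, a ratio of 1.80 ± 0.12. In this top class X did not exceed 2R beyond the replicate spread, with 1.09 ± 0.07 on X and 1.03 ± 0.04 on 2R. It stood above 3L (0.18 in both replicates) and 3R (0.47 ± 0.06). The series list calls more clusters and, at X clusters in both replicates, gives lower values. Its value classes are therefore not the same as those of the replicates. It had 13.4 per Mb under 0.5 on X, against 8.07 on the other 4 arms, so the order in the lowest class depends on the list. From 0.5 to under 1 it had 18.1 on X, against 3.70.

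**Figure D3:**
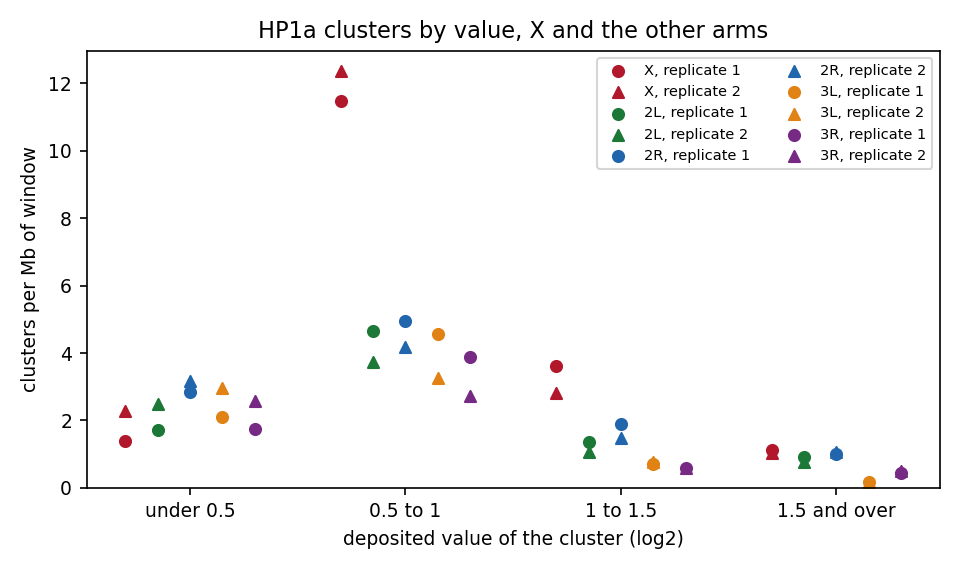
The number of clusters per Mb of window is plotted for each arm in 4 classes of deposited log2 value, with replicate 1 as circles and replicate 2 as triangles and X leftmost in each class. X stands far above the other arms from 0.5 to 1, with 11.5 and 12.4 per Mb, lies among or below them under 0.5, and lies level with 2R at 1.5 and over.

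The values on X were accordingly raised at the low end and not at the high end. The value below which 10% of clusters lay was 0.52 in replicate 1 and 0.48 in replicate 2 on X, against 0.38 and 0.34 on the other 4 arms. The median was 0.80 and 0.76 on X, against 0.64 and 0.60, a difference of 0.16 in both replicates. The value above which 10% lay was 1.31 and 1.19 on X, against 1.33 and 1.32 on the other 4 arms. Single arms differed here, with 1.51 and 1.46 on 2L and 1.46 and 1.54 on 2R. It was 1.09 and 1.04 on 3L, below X, and 1.25 and 1.36 on 3R. The lowest value called was 0.27 and 0.25 on X, against 0.19 and 0.06 on the other 4 arms. Input depth by arm is not in the lists, so whether the least value that could be called differed between X and the other arms was not tested.

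The excess was spread along the X and did not rest on a few sites. In bins of 500 kb, the median cover of the 41 X bins was 3.78% in replicate 1 and 4.14% in replicate 2, against 1.47% and 1.43% for 176 bins of the other 4 arms. Every X bin held a cluster in both replicates. Bins without clusters were rare elsewhere too, since only 5 of the 176 on the other 4 arms had none in either replicate. The median of the mean X cover was 3.88%, a level reached by 7 of the 176 bins on the other 4 arms (3.98%), of which 3 lay on 2L and 2 on 2R. Bins outside X still held the highest covers, up to 24.3%. Across the 41 X bins the replicates gave a Pearson's r of 0.974 and a Spearman correlation of 0.956, as a description of bins of the same libraries.

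**Figure D4:**
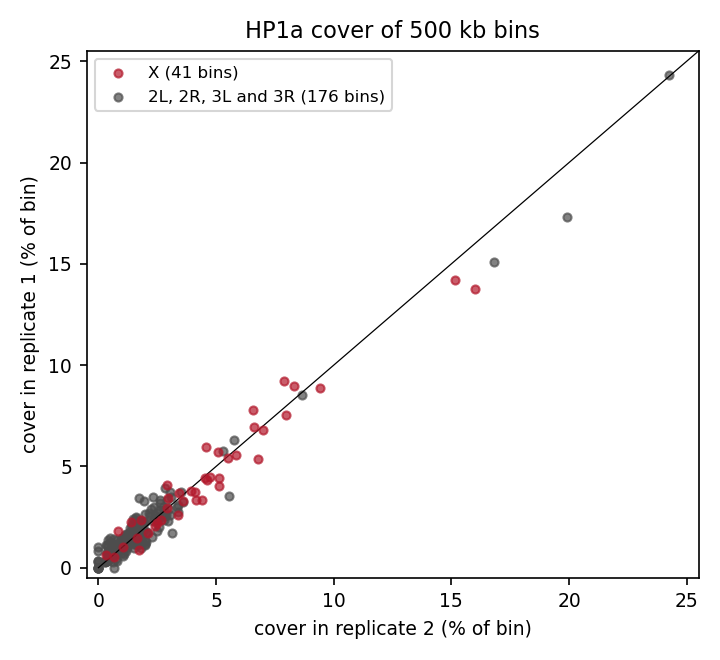
Each point is a 500 kb bin, with the percentage of the bin under clusters of replicate 2 on the horizontal axis and of replicate 1 on the vertical axis. The 41 X bins (red) spread from 0.48% to 14.9% mean cover along the line of equal cover, and most of the 176 bins of the other arms (grey) lie below 3.88%, with a few far above.

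Cover along the X was uneven. The most covered bins were neighbours, X:16000001-16500000 with 13.8% and 16.0% in replicates 1 and 2 and X:15500001-16000000 with 14.2% and 15.2%. X:17500001-18000000 followed with 8.86% and 9.43%, and X:13000001-13500000 with 8.96% and 8.32%. These 4 bins held 25.1% of all X cover. Without the first 2, a choice made after seeing the data, X still had 2.16 times the cover of the other 4 arms. The least covered bins were X:500001-1000000 with 0.65% and 0.32%, X:7000001-7500000 with 0.52% and 0.68%, X:200001-500000 with 1.02% and 1.03%, and X:12000001-12500000 with 0.86% and 1.74%. Cover was higher in the proximal 10.1 Mb of the window, 5.58% and 5.86% in replicates 1 and 2, than in the distal 10.1 Mb, 3.65% and 3.58%. The median values there were close, at 0.82 and 0.76 in the proximal part and 0.78 and 0.76 in the distal part.

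The X clusters gathered into runs. Of the 708, 488 (68.9%) had another within 10 kb, against 43.6% of series clusters on the other 4 arms. The median distance between neighbours on X was 11.5 kb, against a mean of 25.9 kb. Chaining clusters within 10 kb gave 370 groups, of which 220 were single clusters, 71 pairs and 23 runs of 5 or more that held 163 clusters. Clusters in these runs were a little stronger and wider, with a median value of 0.57 and width of 2049 bp, against 0.52 and 1876 bp for single clusters. Of those in runs, 42.9% were in both replicates, against 29.5% of single ones. Runs were not made on the other arms, so whether these counts are particular to X was not tested. In the replicate lists, 53.3% ± 0.5 of X clusters had a neighbour within 10 kb, against 32.1% ± 2.0 on the other 4 arms (SD, n = 2). A denser set has closer neighbours, so spacing was also set against density. The median distance was 0.38 and 0.41 of the mean on X in replicates 1 and 2, against 0.54 and 0.49 on the other 4 arms. 2L, with 0.40 and 0.37, did not differ from X beyond the replicate spread. In the series list, from which the runs were made, X and the other 4 arms were close, at 0.45 and 0.47. There 2R had 0.44 and 3R 0.45, and 2L had 0.50 and 3L 0.52.

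The runs with most members, named after their values were seen, had 12 clusters each. X:15802760-15887104, over 84.3 kb, had 8 of its 12 clusters in both replicates, and replicates 1 and 2 covered 45.8% and 50.6% of its length. It contains the cluster X:15826758-15829604, among the strongest on the X, beside wide and weaker ones. X:17814848-17890072, over 75.2 kb, was covered over 46.0% and 47.8%, with 4 clusters in both. X:5233082-5298270, over 65.2 kb, was thinner, covered over 21.4% and 30.6%, with no series-list value above 0.83. The most filled of the runs named here, X:16349936-16427734, had 9 clusters over 77.8 kb. It was covered over 53.8% in replicate 1 and 69.5% in replicate 2. This run and the first lie in the most covered pair of bins.

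The longest stretches with no cluster of the series list were X:2634045-2971753 (338 kb), X:7202765-7520317 (318 kb) and X:9588881-9895545 (307 kb). The first and second had no cluster in either replicate, and the third had 1 in replicate 1. At the ends of the window, the first cluster inside was X:322552-325784, with 1.31 and 1.39 in replicates 1 and 2, and the last outside was X:138612-140108, seen in replicate 2 alone with 0.62. At the proximal end the last cluster inside was X:20380926-20383396, with 1.23 and 1.04, and the first outside was X:20527274-20528748, in neither replicate, with a series value of 0.33. No cluster crossed either limit. Gene positions on release 5 were not used here, so no cluster is assigned to a gene.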

How the data were processed

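HP1a ChIP-seq lists from nuclei of whole third-instar Oregon-R larvae were used, 1 for each of 2 ChIP libraries and 1 for the series. The submitters' processing notes name Bowtie 0.12.7, a read aligner, and coordinates are on FlyBase release 5, per the file headers. Not given in the sources used here are the cluster caller, its threshold and how the authors combined replicates. The deposited cluster values are read as log2 ratios of ChIP to input. This unit is inferred from repeated values, many of which stand at small whole-number ratios to each other once 2 is raised to them. Each input was the background of the ChIP library with its number, per the labels.

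Clusters wholly inside the window were kept on X and, with the same distances from both ends, on 2L, 2R, 3L and 3R. Overlap meant at least 1 bp. A replicate's value for a series cluster was its clusters' mean weighted by overlap. Cover is summed cluster width over window length. No test was made, since exact permutation of 2 pairs cannot pass a threshold, and the SD of the replicates stands as error. The overlap code was tested on simulated lists. Clusters named were, by rule, the 8 widest and 8 strongest in both replicates, the 3 widest and 3 strongest in neither, the 4 with the largest replicate difference, the 3 longest gaps, the 4 most and least covered bins and those at the window's ends. The window and lists were chosen with earlier results of these data known. Alternatives were other windows, overlaps, joins and value limits. Calculations used pandas 2.3.3, numpy 2.4.6 and scipy 1.17.1 under Python 3.11.15, with figures from matplotlib 3.10.9.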

Additional observations from a re-analysis of the deposited data

How the results depend on the processing

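Of 76 alternative values for 9 results, 45 moved by less than a set limit. That limit was the replicate SD for means over replicates and 1.5 times for the number of clusters. For shares it was a 95% binomial interval and for the Spearman correlation a 95% interval, both over clusters. Clusters share libraries and are not independent, so these intervals only sort the alternatives and test nothing. Leaving out a replicate moves a mean of 2 by less than its SD by construction. Cover on X was then 4.62% to 4.72%, density 17.6 to 18.5 per Mb, median value 0.76 to 0.80, median width 2041 bp to 2052 bp and the ratio of cover to the other arms 2.35 to 2.52. X cover exceeded that of the other 4 arms under each alternative run.

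A lower limit on value, set at the median of each whole list, left 63 of the 708, and 22.2% had a neighbour. Of the 63, 15.9% were in both replicates, with a Spearman correlation of 0.455 over only 10 clusters. The limit differed between lists. In the series list fewer X clusters remained than the 70 at 1 or more, but more than the 30 at 1.5 or more. In the replicate lists fewer remained per Mb than the 1.09 at 1.5 or more. The 15.9% thus compares lists cut at unlike values, where 78.6% of X clusters at 1 or more were in both uncut replicate lists. X cover was then 0.30%, density 0.64 per Mb, median value 1.94 and median width 4060 bp. Joining clusters within 1 kb gave 40.3% in both, 16.7 per Mb, 2093.5 bp and 60.3% with a neighbour. Without repeated values these were 31.8%, 15.7 per Mb, 2078 bp and 64.6%, with 4.18% cover. With 5 Mb left out cover was 4.58%, width 2059 bp and the ratio 2.71, and with 1 Mb left out the ratio was 1.54. A neighbour within 5 kb was found for 52.7% and within 20 kb for 82.8%. The series list gave 8.61%, 35.0 per Mb, 0.54, 1973 bp and a ratio of 2.78. Without the 2 most covered X bins, chosen after seeing the data, X had 4.14%, 16.4 per Mb and a ratio of 2.16. No paired analysis was possible because the inputs that share replicate numbers with the ChIP libraries have no list of their own. The ratios of X to the other arms were taken within each replicate. Unknown read depth limits what a missing cluster can mean.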
